A study of Rattus norvegicus with 6 samples.

Results

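Egr1, Egr2, Egr3, Klf2, Klf4, Klf6, Klf9, Klf10, Klf13 and Klf15, 10 zinc-finger transcription factor genes, were followed through cultures of neonatal rat ventricular myocytes (the contractile cells of newborn rat hearts). They were chosen by symbol. They occupy 11 of the 13843 rows of the RNA sequencing table, since Klf10 is listed on 2 rows, and every row was kept. Of the 11 rows, 10 had a mean of at least 1 FPKM (sequenced fragments scaled by transcript length and by library size) over the 6 libraries and entered the tests. The remaining row, Egr3, is given by its values. Phenylephrine (PE), which stimulates alpha-1 adrenergic receptors and makes cultured cardiomyocytes grow, was given to all cultures, and treatment lasted 3 days. The PE group also carried a control short hairpin RNA, the PE+TSA group the same control hairpin and TSA, and the PE+TSA+shJIP1 group TSA and a hairpin against JIP1, which holds the kinases of the JNK pathway together, with 2 libraries in each. TSA usually stands for trichostatin A, an inhibitor of histone deacetylases, but the labels give only the abbreviation. The labels call the last genotype a knockout in one field and name a hairpin in another; the hairpin wording is used here.

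Egr and Klf proteins bind GC-rich DNA through C2H2 zinc fingers near the carboxy terminus. The Egr genes are immediate early genes: growth factors, adrenergic agonists and stretch switch them on within minutes through the MAP kinases and serum response factor (SRF), and the Nab corepressors hold back the Egr proteins. The Klf family splits by partner. Klf2, Klf4 and Klf6 act mostly as activators and are known from endothelium, smooth muscle and wound responses. Klf9, Klf10 and Klf13 carry a domain that binds the Sin3 corepressor with its histone deacetylases. Klf15 is a metabolic factor of heart and skeletal muscle that restrains cardiomyocyte growth.

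The control regions of the Egr genes are shown first because they carry the sites by which this class of gene is known. A promoter table of RefSeq, on the rat build GRCr8, held 6 of the 10 genes (Egr1, Egr2, Klf4, Klf6, Klf9 and Klf15). The values were made with another build, so these positions serve only to locate the printed sequence. The 250 bases before the annotated start were searched on both strands for the CArG box, the binding motif of SRF. Egr1, Egr2 and Klf6 held one, and they are printed 5′ to 3′ on the strand of the gene with the CArG box in capitals.
Egr1, chr18:26736828-26737077, plus strand: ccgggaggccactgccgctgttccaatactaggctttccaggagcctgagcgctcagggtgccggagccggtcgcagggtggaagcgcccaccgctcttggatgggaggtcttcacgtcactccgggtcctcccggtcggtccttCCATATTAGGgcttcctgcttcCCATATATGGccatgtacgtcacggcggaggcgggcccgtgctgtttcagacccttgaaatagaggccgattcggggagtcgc
Egr2, chr20:21054442-21054691, minus strand: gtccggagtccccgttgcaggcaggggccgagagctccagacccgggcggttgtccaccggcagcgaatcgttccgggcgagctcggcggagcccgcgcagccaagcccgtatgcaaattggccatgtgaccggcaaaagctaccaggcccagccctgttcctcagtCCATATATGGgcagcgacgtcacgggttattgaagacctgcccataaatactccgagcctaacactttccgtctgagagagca
Klf6, chr17:69458479-69458728, minus strand: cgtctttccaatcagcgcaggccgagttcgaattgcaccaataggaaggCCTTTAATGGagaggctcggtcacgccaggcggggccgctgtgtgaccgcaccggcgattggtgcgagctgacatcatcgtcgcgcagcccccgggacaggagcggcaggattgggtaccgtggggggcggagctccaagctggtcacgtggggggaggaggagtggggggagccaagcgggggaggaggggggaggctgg
Egr1 held 2 boxes, CCATATTAGG at bases -105 to -96 and CCATATATGG at -83 to -74. Egr2 held CCATATATGG at the same distance, -83 to -74, and Klf6 held CCTTTAATGG at -201 to -192. Over 33469 promoters of this length, 501 (1.50%) held at least one CArG box and 7 (0.021%) held 2 or more. The letters TGACG, the core of the cAMP response element, overlapped none of these boxes and lay at -66 to -62 on the opposite strand in both Egr1 and Egr2. Egr1 held them once more at -135 to -131, Klf9 at -79 to -75 and Klf15 at -176 to -172 and -104 to -100, so 4 of 6 genes matched, against 18.2% of all promoters. Other motifs were searched on both strands too. The GC box GGGCGG matched 2 of the 6 genes (30.5% of all promoters) and CACCC, a Klf motif, matched 3 (49.2%). The CCAAT box matched 5 (34.02%), the letters TATAAA matched 1 (12.9%), and the full response element TGACGTCA matched none (1.59%). A match of letters describes the sequence and is not evidence of binding.

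**Figure D1:**
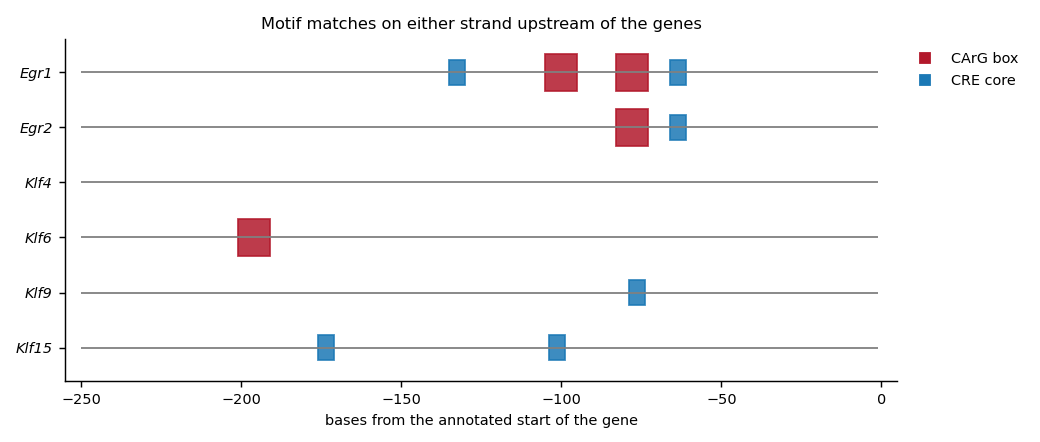
Matches of the CArG box (red) and of the cAMP response element core (blue, CRE core) on either strand in the 250 bases before the annotated start of 6 genes; the x axis is the distance from the start in bases. Egr1 and Egr2 share a CArG box at -83 to -74 and a CRE core at -66 to -62, and Klf4, Klf9 and Klf15 have no CArG box in this window.

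The table gives no read totals, but the whole-read steps of its low values give a rough estimate of depth relative to PE replicate 1. By that estimate PE replicate 2 had 0.048 of that depth and the other 4 libraries 0.722 to 1.34. Each figure is the commonest ratio, held by 29 of 238 rows for PE replicate 2, where a wider range of values was used. PE replicate 2 also listed 3667 rows at 0, against 1407 to 1837 elsewhere, so its low values rest on few reads. Mapk8ip1, the transcript that the hairpin targets, read 3.77 and 4.39 FPKM under PE, 14.6 and 17.9 under PE+TSA, and 1.80 and 3.65 with the hairpin (limma adjusted p = 0.0770 against PE+TSA), so the hairpin libraries were the lowest. No label states that replicate libraries are separate cultures, so the p-values may rest on technical spread alone. Changes below are differences of log2(FPKM + 1), which understate the change of low genes, with their standard errors (SE) and adjusted p-values from limma over the 10359 rows tested.

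**Figure D2:**
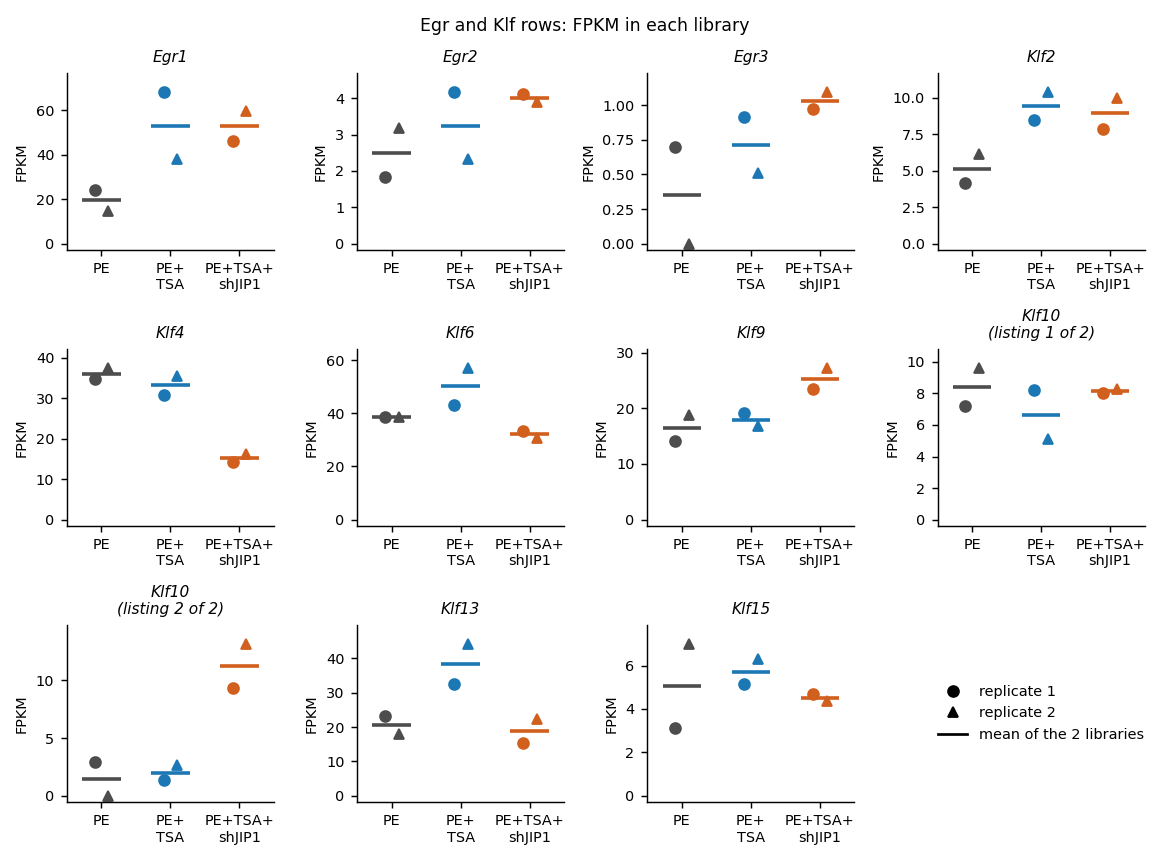
FPKM of the 11 Egr and Klf rows in each library (circle, replicate 1; triangle, replicate 2) with the group mean as a bar; every y axis starts at 0 and has its own scale. Klf4 sits at 14.3 and 16.2 in the hairpin libraries and at 30.9 to 37.4 in the other 4.

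The first comparison, PE+TSA against PE, asks what TSA does in cells that all received PE. None of the 10 rows passed the threshold of 0.05, against 0.811% of all rows. At an unadjusted p under 0.05 there were 3, Egr1, Klf2 and Klf13, all higher with TSA, against 18.7% of all rows in either direction and 11.6% higher. Groups did not overlap for Egr1, Klf2, Klf6 and Klf13, 4 of 10 against 50.6% of all rows. Of the 10 rows, 8 were higher with TSA by any amount, against 56.9% of all rows. The median change of the 10 rows was 0.31 on the log2 scale and that of all rows 0.10.

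The second comparison, PE+TSA+shJIP1 against PE+TSA, asks what the hairpin does in cells that received PE and TSA. Again none of the 10 passed, against 0.29% of all rows. An unadjusted p under 0.05 was reached by Klf4, Klf6 and Klf13, all lower with the hairpin, and by Klf10 listing 2, which was higher. These are 4 of 10, against 14.9% of all rows, of which 8.94% were lower and 5.93% higher. Groups did not overlap for 6 of 10 rows, against 50% of all rows. The changes ran from -1.07 (Klf4) to 2.05 (Klf10 listing 2), with a median of -0.01 beside 0.00 for all rows.

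The last comparison set PE+TSA+shJIP1 against PE. Klf4 fell, from a mean of 36.0 to 15.2 FPKM, and it was the only one of the 10 rows to pass, against 8.27% of all rows in either direction and 4.16% lower. An unadjusted p under 0.05 was reached by Egr1, Klf9 and Klf10 listing 2, all higher, and by Klf4, 4 of 10 against 30.7% of all rows, of which 17.1% were higher and 13.6% lower. Groups did not overlap for 7 of 10 rows, against 60.6% of all rows. The first and last comparisons share the PE libraries, and the second and last the hairpin libraries, so their values are not independent of each other.

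**Figure D3:**
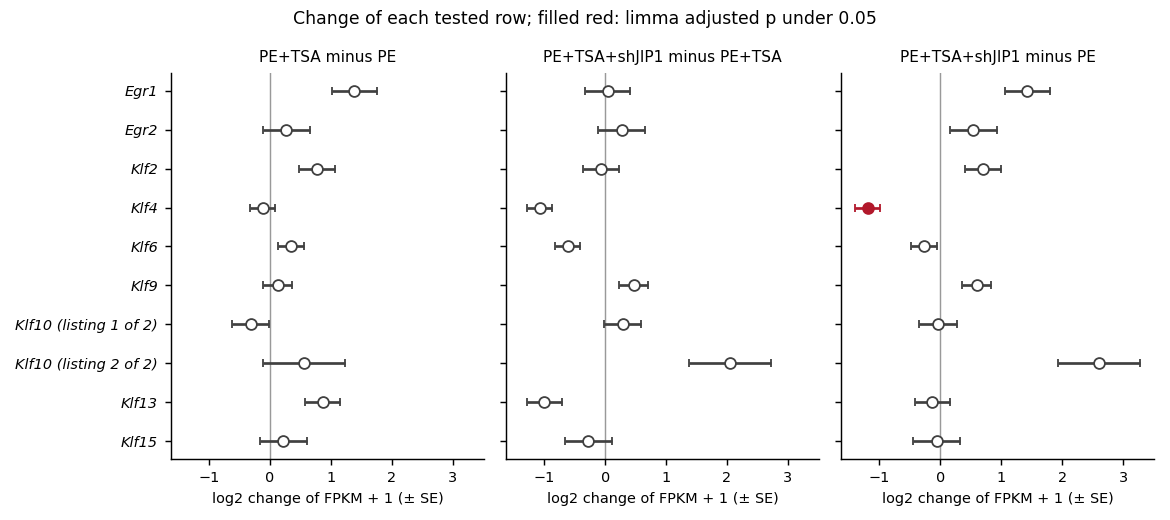
Change of log2(FPKM + 1) with its SE for the 10 tested rows in the 3 comparisons; filled red points have a limma adjusted p under 0.05. Klf4 for PE+TSA+shJIP1 minus PE, at -1.19, is the one filled point, and Klf10 listing 2 has the widest error bars.

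Egr1, the most studied of the immediate early zinc-finger factors, was at 24.3 and 14.5 FPKM under PE, 68.2 and 37.9 under PE+TSA, and 46.1 and 59.6 under PE+TSA+shJIP1. Both PE libraries lay below the other 4, and the groups with TSA overlapped each other. The log2 change was 1.39 ± 0.37 for PE+TSA (unadjusted p = 0.00890, limma adjusted p = 0.147). It was 1.43 ± 0.37 for TSA with the hairpin against PE (limma adjusted p = 0.0642). Between the 2 groups that received TSA it was 0.04 ± 0.37 (limma adjusted p = 0.972). Replicates of Egr1 differed by 0.71 (PE) and 0.83 (PE+TSA) on the log2 scale, above the median replicate difference of all tested rows in those groups (0.39 and 0.30). Without PE replicate 2, the shallow library, the changes of Egr1 against PE were 1.03 and 1.08.

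Egr2, known from hindbrain and Schwann cell development, was far lower on the same per-length scale, at 1.83 and 3.17 FPKM under PE, 4.17 and 2.32 under PE+TSA, and 4.12 and 3.90 under PE+TSA+shJIP1. The hairpin libraries lay above both PE libraries but within the spread of PE+TSA. Its changes were 0.27, 0.27 and 0.54 in the 3 comparisons, each with an SE of 0.39 (limma adjusted p = 0.731, 0.799 and 0.378). Egr3, a relative that acts downstream of calcium signals, was at 0.701 FPKM in replicate 1 of PE and listed at 0 in its replicate 2. It was at 0.916 and 0.513 under PE+TSA and at 0.971 and 1.10 under PE+TSA+shJIP1, and its mean of 0.699 FPKM kept it out of the tests. Egr1 was the highest of the Egr rows in every library, with a ratio to Egr2 from 4.59 (PE replicate 2) to 16.4 (PE+TSA replicate 1).

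Klf4, a factor of smooth muscle and endothelial phenotype and one of the reprogramming factors, was at 34.7 and 37.4 FPKM under PE, 30.9 and 35.5 under PE+TSA, and 14.3 and 16.2 under PE+TSA+shJIP1. The 2 hairpin libraries lay below all others, and PE and PE+TSA overlapped. The log2 change was -0.12 ± 0.20 with TSA (limma adjusted p = 0.782). Between the groups with TSA, hairpin minus control hairpin, it was -1.07 ± 0.20 (unadjusted p = 0.00161, limma adjusted p = 0.106), the 157th smallest p of 10359 rows. For both together against PE it was -1.19 ± 0.20 (unadjusted p = 0.000928, limma adjusted p = 0.0272). Replicates of Klf4 differed by 0.11, 0.19 and 0.17 in the 3 groups, less than the median tested row in each.

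The call on Klf4 rests on the spread shared by all 6 libraries. It was lost when only the PE and PE+TSA+shJIP1 libraries were fitted (limma adjusted p = 0.0674). It was also lost without PE replicate 2 (0.0988), PE+TSA replicate 1 (0.0664), PE+TSA replicate 2 (0.0677), PE+TSA+shJIP1 replicate 1 (0.126) or PE+TSA+shJIP1 replicate 2 (0.148), and it was kept without PE replicate 1. The change itself stayed between -1.28 and -1.11 over all 13 alternatives.

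**Figure D4:**
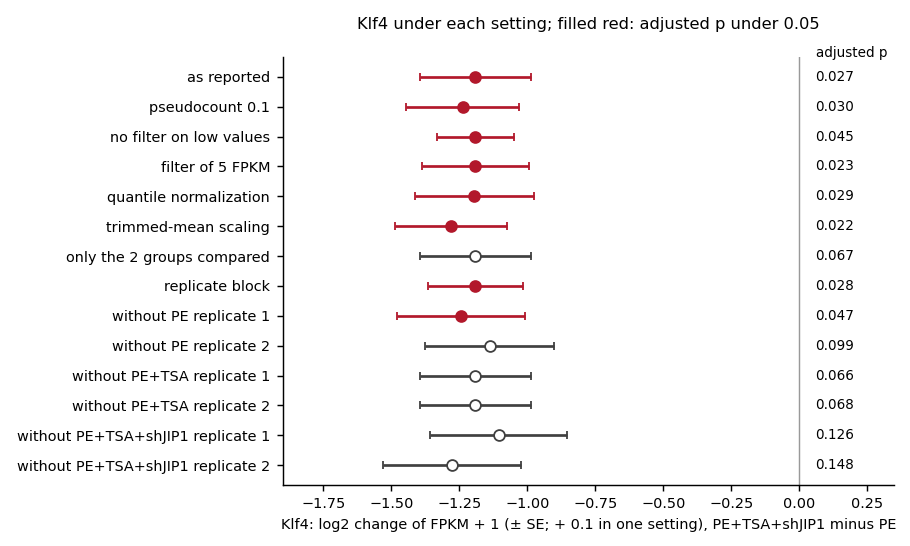
Klf4: log2 change with its SE for PE+TSA+shJIP1 minus PE under the reported setting and 13 alternatives, with the limma adjusted p at the right; filled red points are under 0.05. All points lie between -1.28 and -1.11, and 7 of the 13 alternatives pass.

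Klf6, an activator induced in injured tissue, was at 38.8 and 38.5 FPKM under PE, 43.2 and 56.9 under PE+TSA, and 33.3 and 30.8 under PE+TSA+shJIP1. The 3 groups did not overlap, with PE+TSA highest and the hairpin libraries lowest. Its change was 0.35 ± 0.21 with TSA and -0.62 ± 0.21 with the hairpin (limma adjusted p = 0.408 and 0.260). Klf2, a factor that shear stress induces in endothelium, was at 4.15 and 6.16 FPKM under PE, 8.48 and 10.4 under PE+TSA, and 7.88 and 10.02 under PE+TSA+shJIP1. Both PE libraries were lowest, and the change with TSA was 0.78 ± 0.30 (unadjusted p = 0.0389, limma adjusted p = 0.239). With the hairpin it was -0.07 ± 0.30.

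Klf13, a Sin3-binding factor also known as a cofactor of cardiac gene expression, was at 23.2 and 17.9 FPKM under PE, 32.5 and 44.2 under PE+TSA, and 15.3 and 22.4 under PE+TSA+shJIP1. The 2 PE+TSA libraries lay above all others, and the hairpin group overlapped PE. Its change was 0.87 ± 0.29 with TSA (unadjusted p = 0.0224, limma adjusted p = 0.194). Under the hairpin it was -0.996 ± 0.287 (unadjusted p = 0.0125, limma adjusted p = 0.204). Against PE the hairpin libraries gave -0.13 ± 0.29. The first 2 comparisons share the PE+TSA libraries, so a high value there moves both.

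Klf9, a Sin3-binding factor that glucocorticoids and thyroid hormone induce, was at 14.1 and 18.9 FPKM under PE, 19.2 and 16.8 under PE+TSA, and 23.5 and 27.2 under PE+TSA+shJIP1. Both hairpin libraries lay above the other 4. The change was 0.47 ± 0.24 with the hairpin (limma adjusted p = 0.425) and 0.60 ± 0.24 against PE (unadjusted p = 0.0438, limma adjusted p = 0.152).

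Klf10, first described as an early gene of TGF-beta signalling, stood on 2 rows, and what sets them apart is not given in the sources used here. Listing 1 was at 7.23 and 9.60 FPKM under PE, 8.21 and 5.10 under PE+TSA, and 8.01 and 8.25 under PE+TSA+shJIP1, and all 3 groups overlapped. Listing 2 was at 2.96 and 0 under PE, 1.33 and 2.68 under PE+TSA, and 9.34 and 13.1 under PE+TSA+shJIP1. Both hairpin libraries of listing 2 were above the other 4, but its value of 0 came from the shallow library. Its change was 2.05 ± 0.68 with the hairpin (unadjusted p = 0.0218, limma adjusted p = 0.246) and 2.60 ± 0.68 against PE (limma adjusted p = 0.0642). Against PE it was 1.61 (limma adjusted p = 0.140) without PE replicate 2 and 3.60 (0.0284) without PE replicate 1. With a pseudocount of 0.1 in place of 1 it was 4.34 ± 1.52 (limma adjusted p = 0.122), and the change with TSA was 1.85 in place of 0.56. The 2 listings may share reads. Their sum, an alternative chosen after the values were seen, was 10.2 and 9.60 FPKM under PE, 9.53 and 7.78 under PE+TSA, and 17.3 and 21.4 under PE+TSA+shJIP1. Its difference was 1.08 ± 0.24 with the hairpin (unadjusted p = 0.00398, limma adjusted p = 0.143) and 0.90 ± 0.24 against PE (limma adjusted p = 0.0705), which is not past the threshold either.

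Klf15 was at 3.14 and 6.99 FPKM under PE, 5.13 and 6.31 under PE+TSA, and 4.67 and 4.36 under PE+TSA+shJIP1. The 2 PE libraries spanned all other values. Its changes were 0.22, -0.28 and -0.06 in the 3 comparisons, each with an SE of 0.39.

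On the FPKM scale, which is per length, Klf6, Klf4, Egr1, Klf13 and Klf9 were the 5 highest rows in every library. Their order was not the same in all groups. Klf6 and Klf4 came first and second in both PE libraries, and Egr1, Klf6, Klf9, Klf13 and Klf4 stood in that order in both hairpin libraries. Under PE+TSA the first place went to Egr1 in replicate 1 and to Klf6 in replicate 2, and Klf4 lay below Klf6, Klf13 and Egr1 in both. The gap between Klf6 and Klf4 under PE was small, since Klf4 stood at 0.894 and 0.972 of Klf6. Klf4 made up 22.4% and 24.4% of the summed FPKM of the 11 rows under PE, 13.9% and 16.2% under PE+TSA, and 8.53% and 8.22% under PE+TSA+shJIP1.

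A ratio between members within a library does not depend on how libraries were scaled to each other. Klf4 to Klf9, a pair chosen after the values were seen, stood at 2.46 and 1.98 under PE, 1.61 and 2.11 under PE+TSA, and 0.609 and 0.595 under PE+TSA+shJIP1. Klf4 to Klf6 stood at 0.894 and 0.972, 0.716 and 0.623, and 0.429 and 0.527 in the same order. The hairpin libraries had the lowest value of both ratios, and the PE and PE+TSA groups overlapped only in the first. Klf4 to Klf13 differed from these: it read 1.49 and 2.10 under PE, 0.949 and 0.804 under PE+TSA, and 0.934 and 0.724 with the hairpin. In that ratio both PE libraries were highest, and the groups with TSA overlapped.

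Of 7785 rows of other genes with a mean of at least 5 FPKM, those with the profile most like that of Klf4 were Sema3c, a secreted semaphorin, Ano6, a phospholipid scramblase, and Pip4k2c, a phosphoinositide kinase. Their centred log2 values differed from those of Klf4 by a root mean square of 0.10, 0.10 and 0.11 over the 6 libraries. Sema3c was at 151 and 161 FPKM under PE, 126 and 161 under PE+TSA, and 67.1 and 62.1 under PE+TSA+shJIP1. These 3 were picked for likeness, so no test applies to them.

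Related genes were counted from lists written from general knowledge. These lists were chosen with earlier results of these data known, so their counts and shares are not independent support. Of 9 tested rows of other Egr, Klf and Sp factors, none passed in any comparison, and their median change was -0.03 with TSA, -0.25 with the hairpin and 0.10 against PE. Klf12, a repressor, had the smallest p of these with TSA, at 1.121 and 3.01 FPKM under PE and 6.40 and 6.74 under PE+TSA (limma adjusted p = 0.155). Sp4, a relative of Sp1, had the smallest p for the hairpin, at 3.11 and 2.49 FPKM under PE+TSA and 6.001 and 4.83 with it (limma adjusted p = 0.318). Of 11 corepressor genes, including Nab1, Nab2, Sin3a, Sin3b, Hdac1 and Hdac2, none passed in any comparison (medians -0.05, 0.10 and -0.18). Sin3a was at 25.5 and 24.3 FPKM under PE, 32.8 and 30.1 under PE+TSA, and 41.8 and 41.0 under PE+TSA+shJIP1, 3 groups that did not overlap (limma adjusted p = 0.0659 against PE). Rbbp4, a histone-binding subunit of the Sin3 complex, was at 10.6 and 7.64 FPKM under PE, 6.77 and 4.27 under PE+TSA, and 3.52 and 3.18 with the hairpin (limma adjusted p = 0.0709 against PE). The differences of Nab1 and Nab2 against PE were -0.50 and 0.05 (limma adjusted p = 0.160 and 0.930).

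Upstream of the Egr genes, none of 5 rows of SRF, its Ets-type partners and myocardin passed in any comparison (medians -0.02, 0.05 and 0.10). Srf itself was at 32.0 and 28.6 FPKM under PE, 24.9 and 10.6 under PE+TSA, and 9.53 and 10.6 under PE+TSA+shJIP1 (change against PE -1.50 ± 0.39, limma adjusted p = 0.0641). All 4 libraries with TSA were below both PE libraries for Srf and above both for Egr1. Of the other genes with a CArG box, Egr2 overlapped between PE and PE+TSA, and Klf6 was highest under PE+TSA and lowest with the hairpin. A link between Srf and these genes was not tested. Elk3 (listing 2 of 2), an Ets-type partner, had the next smallest p (limma adjusted p = 0.177 against PE), with a value near 0 in the shallow library.

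Of 26 rows of other immediate early genes, 23 were higher with the hairpin, against 49.7% of all rows, with a median change of 0.71 beside -0.01 for the 10 Egr and Klf rows and 0.00 for all rows; the difference between the lists was not tested. Atf3, a stress-induced factor, and Cyr61 (listing 2 of 2), a matricellular protein, rose (changes 3.44 ± 0.30 and 2.45 ± 0.25, limma adjusted p = 0.0241 and 0.0330). They are 2 of 26, beside 0.183% of all rows that rose. Levels of Atf3 were 2.01 and 1.99 FPKM under PE+TSA against 27.4 and 36.3 under PE+TSA+shJIP1. Against PE, 22 of 26 were higher, against 55.4% of all rows, and Atf3, Cyr61 (listing 2 of 2) and Btg2 rose, 3 of 26 against 4.11% of all rows. With TSA none of the 26 passed (median -0.03). The 26 rows hold 23 genes, since Cyr61, Jun and Zfp36 stand on 2 rows each, all of them higher with the hairpin. This list shares Dusp1 with the glucocorticoid list and Srf with the SRF list. Of the lists below, the glucocorticoid and circadian clock lists share Per1. The list of Klf2 and Klf4 targets shares Tek with the endothelial markers.

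**Figure D5:**
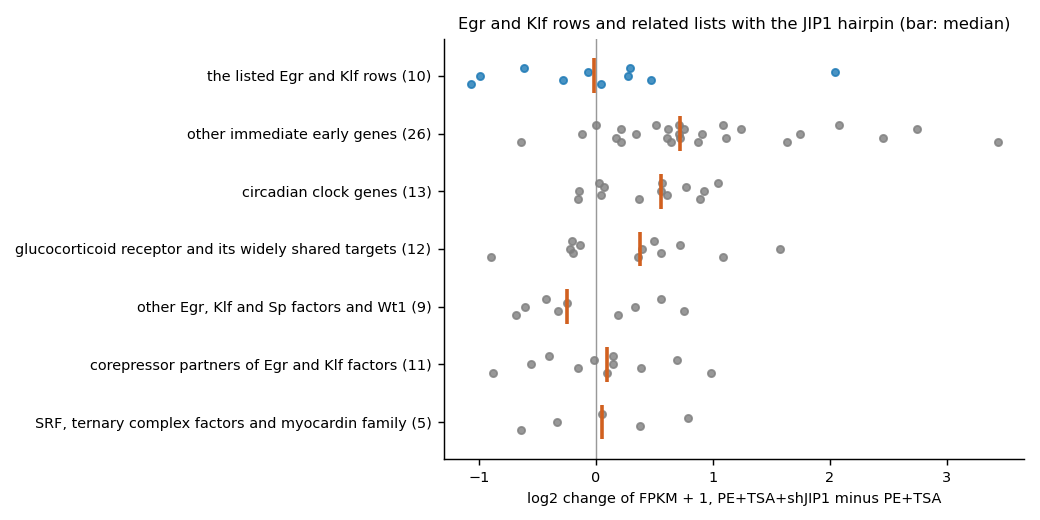
Change of log2(FPKM + 1), PE+TSA+shJIP1 minus PE+TSA, of each tested row of the Egr and Klf genes (blue) and of 6 related lists (grey), with the number of rows in brackets and the median as an orange bar. The median of the immediate early list is 0.71 and that of the Egr and Klf rows -0.01.

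Among genes that share inputs with Klf9 and Klf15, 1 of 12 rows of the glucocorticoid list rose against PE, beside 4.11% of all rows. None passed in the other comparisons (medians 0.17, 0.38 and 0.75). The row that rose was Cebpd, a bZIP transcription factor. It was at 55.8 and 54.3 FPKM under PE, 83.3 and 143 under PE+TSA, and 141 and 170 under PE+TSA+shJIP1 (limma adjusted p = 0.0362 against PE). Of 13 circadian clock rows, 11 were higher with the hairpin, against 49.7% of all rows, and none passed (median 0.56 beside 0.00 for all rows, and -0.06 with TSA beside 0.10). Against PE the repressor Nr1d1 rose, from 20.6 and 23.8 FPKM to 50.1 and 54.0 (limma adjusted p = 0.0442, list median 0.51). It is 1 of 13, beside 4.11% of all rows that rose. Of 8 rows reported as Klf15 targets, the glucose transporter Slc2a4 and the acyl-CoA synthetase Acsl1 fell against PE (medians -0.06, 0.05 and 0.18). That is 2 of 8, beside 4.16% of all rows that fell. Slc2a4 read 14.5 and 11.4 FPKM under PE, then 6.51 and 8.78 under PE+TSA and 2.46 and 2.39 with the hairpin (limma adjusted p = 0.0192 against PE). Klf15 itself overlapped between PE and each of the other groups, and its hairpin libraries lay below its PE+TSA libraries. Of 7 rows listed as Klf2 and Klf4 targets in endothelium, Asb2 fell against PE (limma adjusted p = 0.0448), beside 4.16% of all rows. None passed otherwise (medians 1.61, 0.13 and 0.73). With TSA, 4 of the 7 were higher, beside 56.9% of all rows, and 3 lower. Their changes ran from -1.47 for Asb2 (limma adjusted p = 0.0908) to 2.13 for the adhesion protein Jam2 (0.164). An unadjusted p under 0.05 with TSA was reached by 6 of the 7 in either direction, beside 18.7% of all rows. Of these 6, Procr was at 1.79 and 0 FPKM under PE, with the 0 in the shallow library. This list was chosen with earlier results of these data known, so the count is not a test of it. Over these lists and the cell type markers below, 19 calls were made in the 3 comparisons. Leaving out any 1 library ended 12 of them, and the other 7 held only without PE replicate 1.

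Markers of the cell types in such cultures differed in level between the groups. Summed FPKM of 8 cardiomyocyte markers, all detected in every library, was 17770 to 22115 under PE, 4421 to 9982 under PE+TSA and 4616 to 9116 under PE+TSA+shJIP1. Tnni3 and Pln of this list fell against PE, beside 4.16% of all rows, and all 8 were lower, beside 44.4% of all rows. Smooth muscle and pericyte markers summed to 1357 to 1669 under PE, 265 to 407 under PE+TSA and 497 to 518 under PE+TSA+shJIP1, with Rgs5 at 0 in some libraries. Of their 6 tested rows, Acta2, Cspg4 and Myh11 fell against PE, beside 4.16% of all rows. With TSA Acta2 fell, beside 0.183% of all rows. Fibroblast markers summed to 1039 to 1685, 535 to 743 and 562 to 683. Col1a2 of this list stood at 0 in every library except PE+TSA replicate 2, where it read 0.127 FPKM. Of their 7 tested rows Thy1 rose with TSA, beside 0.627% of all rows. Against PE Thy1 rose and Dcn fell, beside 4.11% of all rows that rose and 4.16% that fell. All of these sums were lower in both groups with TSA. Single markers did not all follow the sum of their list, since Pln overlapped between PE and PE+TSA. Endothelial markers, the cell type best known for Klf2 and Klf4, summed to 15.4 to 16.8, 19.4 to 39.2 and 11.3 to 15.9, and Emcn, Pecam1, Tie1 and Vwf were at 0 in at least 1 library. None of the 5 endothelial rows tested passed, although Kdr was at 11.9 and 30.1 FPKM under PE+TSA and 3.72 and 4.57 with the hairpin (limma adjusted p = 0.149). Macrophage markers summed to 5.15 to 17.6 over all libraries, and Schwann and erythroid markers to 0.0772 to 4.97, with no row past the threshold. Their part in the Egr and Klf values was not tested. In RNA from whole cultures, fewer cells of a type and less RNA per cell cannot be told apart.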

How the data were processed

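RNA from 6 libraries of neonatal rat ventricular myocytes, 2 for each of 3 groups taken from the sample titles, was measured by sequencing. The authors deposited 1 table with a column of FPKM values per library and 13843 rows (13556 symbols). The header names no unit; per the submitters' processing notes the tools include Cufflinks and the build is rn6. No source used here gives the aligner, the annotation or the strand setting, so overlapping genes may share reads.

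Rows with a mean of at least 1 FPKM were tested on log2(FPKM + 1) with limma 3.58.1 in R 4.3.3: 1 mean per group, all 6 libraries, a variance trend with level (3 residual and 3.27 prior degrees of freedom), two-sided p-values adjusted by Benjamini and Hochberg over all rows of a comparison, threshold 0.05. The method was tested on simulated data with independent noise and changes larger than that of Klf4. That test does not bear on the Klf4 call. Named were all 11 rows, the genes of each list that passed (at most 4 a comparison) or, where none passed, those with the smallest p, the 3 rows most like Klf4, and Mapk8ip1. Nab1, Nab2 and Jam2 were added after their values were seen. One further list is not reported here. The genes and lists were chosen with earlier results of these data known, which were not used as support. Alternatives were another pseudocount (0.1), 2 other filters, 2 scalings, the compared groups alone, a replicate block and leaving out each library.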

Additional observations from a re-analysis of the deposited data

How the results depend on the processing

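The number of Egr and Klf rows that passed was 0 with TSA and 0 with the hairpin under all alternatives, and leaving out a library gave 0 to 0 in both. Against PE it was 1 as reported, 0 with only the 2 groups compared, and 0 to 2 on leaving out a library, where the 2 came without PE replicate 1. Whether replicate numbers pair the samples is not settled. Deviations of same-numbered libraries correlated across genes at 0.07, 0.04 and 0.12, all weak but positive. Correlations this weak cannot exclude pairing, and the first 2 involve the shallow PE replicate 2. With the replicate block the counts of Egr and Klf rows were 0, 0 and 1, and Klf4 against PE had a limma adjusted p of 0.0280.

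Of all rows, 84, 30 and 857 passed in the 3 comparisons as reported. With no filter the counts were 3, 0 and 374, with only the groups compared 5, 8 and 4, and with the replicate block 28, 18 and 1063. Leaving out a library gave 6 to 203, 7 to 16 and 4 to 941.

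Of 384 values of single Egr and Klf rows under alternatives, 361 kept their direction and side of the threshold, 6 no longer passed (Klf4), 1 newly passed (Klf10 listing 2) and 16 changed sign; none of these 16 was called. With quantile normalization Klf10 listing 2 was at -0.0240 with TSA. On leaving out a library the changes with TSA ran from -0.0494 to 0.59 for Egr2, -0.0708 to 0.33 for Klf9, -0.25 to 0.70 for Klf15 and -0.44 to 1.55 for Klf10 listing 2. Those with the hairpin ran from -0.37 to 0.46 for Egr1, -0.0453 to 0.59 for Egr2, -0.23 to 0.0834 for Klf2 and -0.0117 to 0.58 for Klf10 listing 1. Those against PE ran from -0.39 to 0.13 for Klf13, -0.22 to 0.15 for Klf10 listing 1 and -0.53 to 0.41 for Klf15. The filter of 5 FPKM left out Egr2 and Klf10 listing 2. The median change of all rows was 0.10, 0.00 and 0.10 as reported, 0.03, -0.01 and 0.02 with trimmed-mean scaling, and -0.02, 0.03 and 0.01 with quantile normalization. The depth of PE replicate 2 limits what can be said of low rows such as Egr3.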
